A study of Mus musculus with 12 samples.

Results

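Of 19938 genes measured on the arrays, 72 were lower in every pool of angiogenic islets than in any pool of non angiogenic islets, by 0.25 or more on the log2 scale of the mean (a fold of 1.19 or more). They were chosen by their own values. For each gene named by 1 symbol, the brightest transcript cluster was taken, and a gene was kept where its highest angiogenic array lay below its lowest non angiogenic array and the difference of the group means was -0.25 or lower. Genes named Hsp, Dnaj or Kcn and the genes Sst, Pyy, Gcg, Frzb, Sfrp5 and Bnip3 were left out by name, which removed 9 genes that met both limits. RNA came from pools of islets of 8 week old Rip1Tag2 mice on a C57BL/6 background, described in the labels as early tumor islets. The transgene, carried by both groups, drives the SV40 T antigen from the rat insulin promoter, so that beta cells form tumors. Islets were freed from the pancreas with collagenase, purified on a density gradient and classed as angiogenic or non angiogenic by their look, with no treatment of the mice named, and 6 pools of each class were measured on Affymetrix mouse gene arrays. How many mice or islets entered each pool, and whether any mice were shared between pools, is not in the labels, and the p-values below rest on the spread among the 12 pools, part of which may be technical.

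Islets are clusters of endocrine epithelium. Beta cells release insulin, alpha cells glucagon and delta cells somatostatin, and the cells hold to one another through cadherins and tight junctions, the belts of claudins and other membrane proteins that seal the space between epithelial cells. Endocrine cells also share with neurons the machinery of regulated secretion, such as Rab GTPases, calcium buffers and the synthesis of gamma-aminobutyric acid (GABA). At the angiogenic switch, quiet islet capillaries dilate and sprout, and pericytes, fibroblasts and macrophages gather around them.

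All values are levels on the log2 scale as deposited, and a difference is the mean of the 6 angiogenic arrays minus that of the 6 non angiogenic arrays. Since this contrast chose the genes, it is described here and not tested for them. The choice favours large differences and small spread, and the SEs given for members do not allow for it. With the 9 genes left out by name, 81 genes met the limits, 0.406% of all genes, against 474 (2.38%) for the same limits in the other direction. Without the limit on the mean, 184 genes (0.923%) were lower in every angiogenic array and 569 (2.85%) higher. The differences were small. Those of the 72 genes ran from -0.86 to -0.25 with a median of -0.35, a fold of 1.28, while the median over all genes was -0.02. In 9 genes the difference was -0.50 or lower, and in 24 it was smaller than 0.30 in size. The gap between the lowest non angiogenic and the highest angiogenic array was 0.08 at the median and passed 0.20 in 6 genes, Gm609, Plag1, Defb1, Shisal2b, Nell1 and Lancl3.

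**Figure D1:**
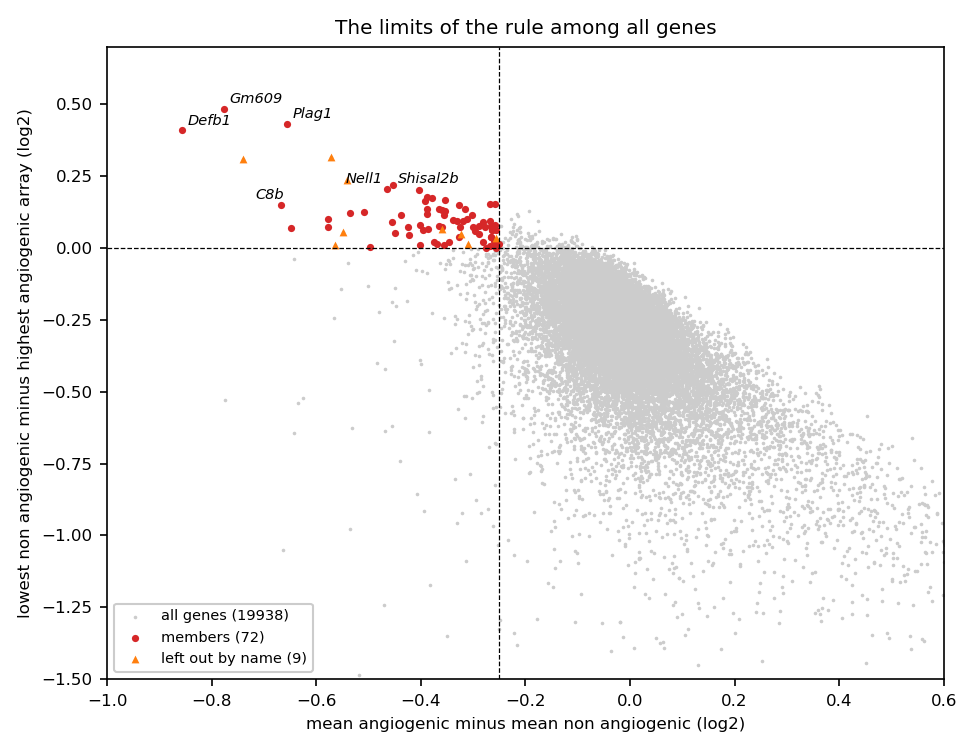
Difference of the group means (x axis, log2) against the gap between the lowest non angiogenic and the highest angiogenic array (y axis, log2, above 0 where the groups do not overlap) for the genes within the plotted range; dashed lines mark the limits of the rule. The 72 members (red) and the 9 genes left out by name (orange) fill the upper left field, and Defb1, Gm609 and Plag1 lie far from the rest.

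The limits cut through a continuous spread. Just inside the limit on the mean were Zfp141 (-0.2501), BC065397 (-0.256) and Tuft1 (-0.256), and just outside it Podxl2 (-0.248), Ucn3 (-0.248), which encodes the beta cell hormone urocortin 3, and Elmo3 (-0.246). The smallest gaps were those of Tec (0.00039), Tuft1 (0.0021) and Caps2 (0.0051). On the far side, Rbbp6, Rhobtb1 and Gabarapl1 overlapped by 0.0018, 0.0043 and 0.0044. The lowest non angiogenic array was replicate 1 for 20 of the 72 genes and replicate 5 for 15, and the highest angiogenic array was replicate 3 for 17 and replicate 2 for 15, so no array set the limit for most of them. Among the genes left out by name were the hormone genes Sst (-0.74), Pyy (-0.56) and Gcg (-0.26).

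The arrays carried other differences. Markers of stromal cells were up-regulated in angiogenic islets, with 14 of 18 endothelial, 12 of 13 pericyte and smooth muscle, 12 of 13 fibroblast and 9 of 14 macrophage markers higher at an adjusted p under 0.05 (limma) and no array overlapping in the mean of any of these lists. Those means rose by 0.46, 0.73, 0.998 and 0.42. Each had p = 0.00216 by the exact permutation test, two-sided, the smallest this design allows, and 0.00866 after adjustment over 16 lists. The study had already reported several of these markers as up-regulated from these same arrays, so the p-values are no independent test of them. The mean over 12 beta cell markers was 11.57 to 11.83 in non angiogenic and 11.53 to 11.69 in angiogenic islets (difference -0.09, adjusted p = 0.257 by the same exact test), so markers of the labelled tissue were present in all 12 pools. In bulk RNA, fewer cells of a type and less RNA per cell cannot be told apart, and the part of the added stromal RNA in the differences of the 72 genes was not tested. Replicates 1 to 3 and 4 to 6 also stood apart as 2 sets of arrays in both groups, which the labels do not name. The legends of the study speak of a pair of independent profiling experiments without saying which arrays each held. Whether the sets are those experiments was not tested, and if they are, arrays of a set share an experiment while the p-values here treat them as independent. The limma tests of genes outside the 72 were therefore also read with the set as a block, and where this changed a call on a gene named here, it is given beside the gene. Values within each set follow after the genes.

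Sorted by what the genes are known to do, in groups drawn up after the values were seen, 9 members belonged to tight junctions and the apical membrane, 8 encoded secreted proteins, 10 receptors, transmitter synthesis, calcium and vesicle proteins, 16 regulators of genes or RNA, 9 enzymes, 7 signalling proteins and scaffolds and 4 proteins of cilia or sperm, and 9 were little described. Median differences of these groups lay between -0.38 (junctions and apical membrane; secreted proteins) and -0.28 (gene regulation). By RefSeq, 68 of the 72 were protein coding, 3 were long non-coding RNAs and 1 was a microRNA gene.

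**Figure D2:**
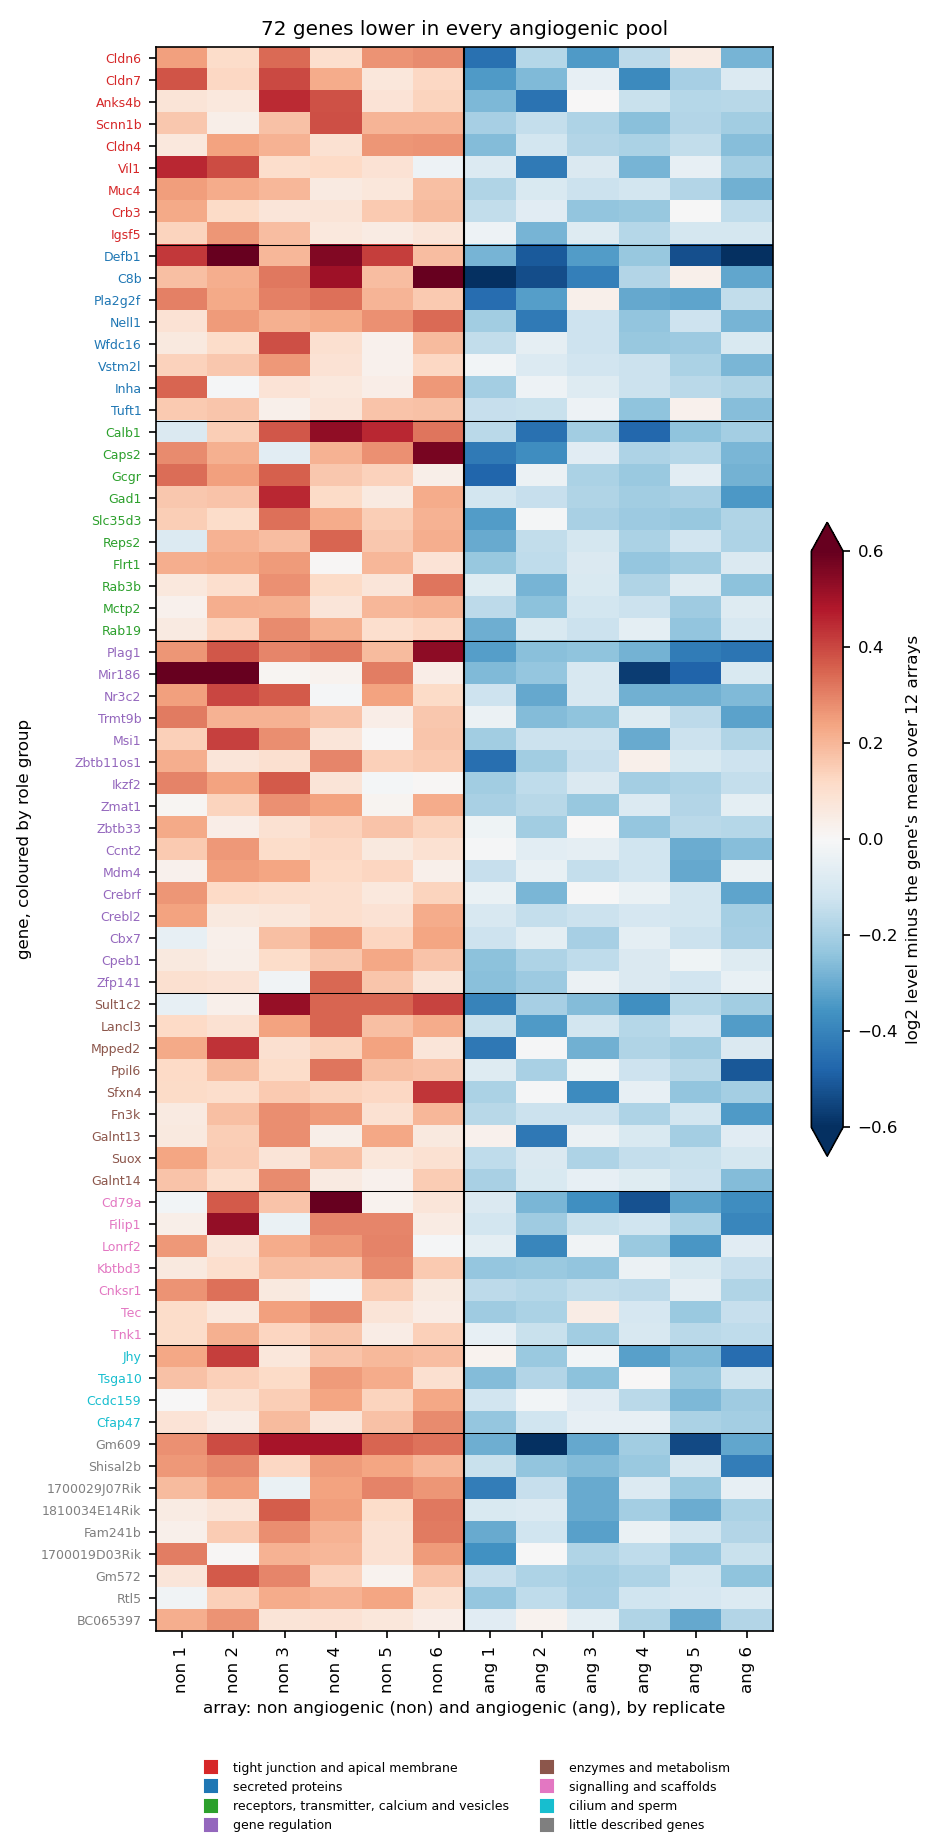
Levels of the 72 genes (rows, grouped and coloured by role) in the 12 arrays (columns), each as log2 level minus the mean of the gene over all arrays; colours saturate at 0.6. Every gene is redder in the 6 non angiogenic than in the 6 angiogenic arrays, and Cd79a, Mir186, C8b and Defb1 are among those with the deepest colours in single arrays.

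The 9 members of tight junctions and the apical membrane included 3 claudins, Cldn6 (8.49 to 8.04), Cldn7 (8.47 to 8.03) and Cldn4 (9.96 to 9.58). Their start regions are shown because these 3 family members differed alike, with the RefSeq windows of build GRCm38.p6 running from 250 bases before to 50 bases after the gene start. Capitals mark the cyclic AMP response element TGACGTCA in Cldn6 and Cldn7, and in Cldn4, whose window lacks it, the Sp1 GC box GGGCGG, here read as CCGCCC on the printed strand.
Cldn6, chr17:23679115-23679414, plus strand: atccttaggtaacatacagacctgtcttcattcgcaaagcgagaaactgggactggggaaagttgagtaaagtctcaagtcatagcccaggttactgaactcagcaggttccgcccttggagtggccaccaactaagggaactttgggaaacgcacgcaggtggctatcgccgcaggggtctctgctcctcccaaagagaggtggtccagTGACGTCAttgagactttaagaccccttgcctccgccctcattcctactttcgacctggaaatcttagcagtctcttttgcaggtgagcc
Cldn7, chr11:69965171-69965470, plus strand: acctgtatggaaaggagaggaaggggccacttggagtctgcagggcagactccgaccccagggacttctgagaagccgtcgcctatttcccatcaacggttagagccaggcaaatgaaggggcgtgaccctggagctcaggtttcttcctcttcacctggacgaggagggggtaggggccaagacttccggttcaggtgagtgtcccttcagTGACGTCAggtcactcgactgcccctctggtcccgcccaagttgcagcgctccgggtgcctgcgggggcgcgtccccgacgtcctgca
Cldn4, chr5:134946885-134947184, minus strand: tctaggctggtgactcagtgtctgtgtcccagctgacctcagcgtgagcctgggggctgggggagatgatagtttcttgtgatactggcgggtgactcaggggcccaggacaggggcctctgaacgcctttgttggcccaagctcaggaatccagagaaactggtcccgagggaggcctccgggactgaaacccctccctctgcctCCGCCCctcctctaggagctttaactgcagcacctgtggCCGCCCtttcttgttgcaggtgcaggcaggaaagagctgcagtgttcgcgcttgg
The element began 40 bases before the start in Cldn6 and 38 bases before it in Cldn7, and the GC boxes of Cldn4 began 44 and 5 bases before its start. Cldn7 has 2 windows, and the one not printed here lacks TGACGTCA. Both strands were searched. Of 29 windows of 21 claudin genes, only these 2 windows, of Cldn6 and Cldn7, held TGACGTCA, a sequence found in 2.37% of 19177 windows of all measured genes. The GC box was common, in 13 of the 29 windows and 11 of the 21 genes. The printed windows of Cldn6 and Cldn7 hold it too, where it is not marked. A match is a run of letters and no evidence of binding.

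Claudins form the strands of the tight junction and set which ions pass it. The level of Cldn6, an epithelial claudin of embryonic and tumor tissue, ran from 8.36 to 8.60 (median 8.52) in the non angiogenic pools and from 7.81 to 8.31 (median 8.04) in the angiogenic pools, a difference of -0.45 ± 0.08 (SE). That of Cldn7 ran from 8.32 to 8.65 (median 8.42) in the non angiogenic pools and from 7.87 to 8.20 (median 8.02) in the angiogenic pools, a difference of -0.44 ± 0.08 (SE). Cldn4 lay between 9.51 and 9.66 (median 9.58) in angiogenic and between 9.83 and 10.04 (median 9.99) in non angiogenic islets, a difference of -0.38 ± 0.04 (SE). Of the 3, Cldn4 had the narrowest spread within each group. The other claudins were uneven. Of 27 claudins measured, no other was lower by limma, and 20 including the 3 members had a difference below 0 (59.9% of all genes). Cldn5, the claudin of endothelial cells, and Cldn1 were up-regulated by 0.60 and 0.38 (limma, adjusted p = 0.00126 and 0.00972). Cldn3 differed by -0.13 and Cldn12 by -0.22 with overlapping arrays (adjusted p = 0.406 and 0.229). With the set as a block Cldn12 also passed (adjusted p = 0.0307 from limma).

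A pair of further members sit at the same junction. Crb3, the Crumbs protein that marks the apical side of epithelial cells, went from 8.39 ± 0.06 to 8.11 ± 0.09 (SD, n = 6 each), and Igsf5, also known as JAM4, an adhesion protein of tight junctions, from 7.25 ± 0.08 to 6.99 ± 0.09. Of 26 other tight junction and polarity genes, a list added after the values were seen, limma called 1 lower, Esrp2, a splicing regulator of epithelia (-0.27, adjusted p = 0.0325). Occludin (Ocln) had a difference of -0.34 with overlapping arrays (adjusted p = 0.177), and those of the scaffold ZO-1 (Tjp1), E-cadherin (Cdh1) and Epcam were 0.03, -0.06 and -0.05, none past the test. With the set as a block Ocln and the polarity scaffold Mpp5 (-0.17) also passed as lower (adjusted p = 0.0124 and 0.0275 from limma), and Cgnl1, which encodes paracingulin, as higher (0.16, adjusted p = 0.0242).

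The remaining apical members belong to the brush border, the mucus coat and sodium uptake. Vil1, encoding villin, which bundles the actin of microvilli, ran from 7.28 to 7.76 (median 7.42) in the non angiogenic pools and from 6.88 to 7.26 (median 7.16) in the angiogenic pools. Anks4b, encoding an adaptor of the brush border, ran 7.16, 7.21 and 7.55 (lowest, median and highest) in non angiogenic against 6.66, 6.93 and 7.10 in angiogenic islets. In both, non angiogenic arrays spread widely, with 2 arrays well above the rest (replicates 1 and 2 for Vil1, 3 and 4 for Anks4b), and the remaining 4 lay closer to the angiogenic arrays. None of the other 10 brush border genes measured passed the limma threshold, and Ush1c, whose protein binds Anks4b, differed by -0.11 (adjusted p = 0.477). Scnn1b, the beta subunit of the epithelial sodium channel, had angiogenic arrays close together, between 9.56 and 9.66 (median 9.62) in angiogenic and between 9.84 and 10.19 (median 9.998) in non angiogenic islets, a difference of -0.39 ± 0.05 (SE). The alpha and gamma subunits, Scnn1a and Scnn1g, had differences of -0.09 and -0.16 and did not pass (adjusted p = 0.597 and 0.483). Muc4, a membrane-bound mucin, lay between 9.08 and 9.28 (median 9.22) in angiogenic and between 9.43 and 9.62 (median 9.56) in non angiogenic islets, a difference of -0.33 ± 0.04 (SE), whereas the other 11 mucins measured lay between -0.19 (Muc16) and 0.09 (Muc1), none past the test.

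Secreted proteins held the largest difference. Defb1, encoding beta-defensin 1, an antimicrobial peptide that epithelia make without induction, ran from 9.42 to 10.04 (median 9.66) in the non angiogenic pools and from 8.54 to 9.01 (median 8.82) in the angiogenic pools. The groups were parted by 0.41, and the difference of -0.86 ± 0.12 (SE) made angiogenic islets 1.81-fold lower. No other of 42 defensin genes passed the limma threshold. C8b, the beta chain of complement component 8 and part of the pore that complement builds in membranes, ran from 9.16 to 9.58 (median 9.25) in the non angiogenic pools and from 8.38 to 9.01 (median 8.62) in the angiogenic pools, a difference of -0.67 ± 0.12 (SE). Its angiogenic arrays were the more spread, replicates 1 to 3 being the lowest. None of the other 5 genes of the terminal pathway measured passed, the partner chains C8a and C8g with differences of -0.02 and -0.09.

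**Figure D3:**
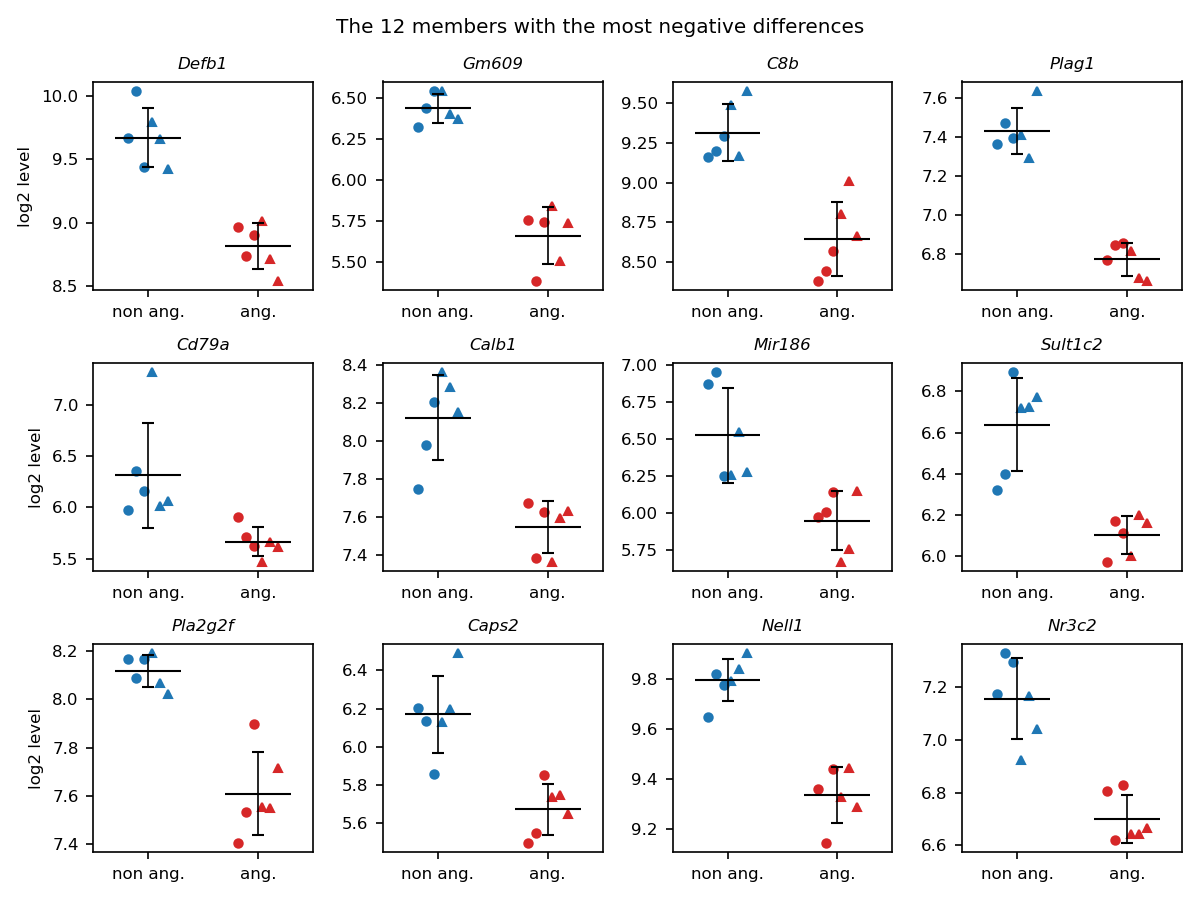
Log2 levels of the 12 members with the most negative differences in each array, with non angiogenic islets in blue and angiogenic islets in red; circles are replicates 1 to 3, triangles replicates 4 to 6, lines the mean and bars the SD of 6 arrays (axes do not start at 0). The widest gaps are those of Gm609, Plag1 and Defb1, and 1 non angiogenic array (replicate 4) stands far above the others for Cd79a.

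Pla2g2f, a secreted phospholipase A2 that frees fatty acids from membranes, ran from 8.02 to 8.19 (median 8.13) in the non angiogenic pools and from 7.40 to 7.90 (median 7.55) in the angiogenic pools. Its non angiogenic arrays lay close together, and angiogenic replicate 3, at 7.90, was the highest of its group. Nell1, a secreted glycoprotein with EGF-like domains known from bone growth, lay between 9.14 and 9.44 (median 9.34) in angiogenic and between 9.65 and 9.91 (median 9.81) in non angiogenic islets, a difference of -0.46 ± 0.06 (SE). Smaller differences in this group were those of Wfdc16, with a WAP domain (-0.29), Vstm2l, with an immunoglobulin domain (-0.27), the enamel protein tuftelin, Tuft1 (-0.26), and Inha (-0.26). Inha encodes the alpha subunit of inhibin, which pairs with a beta subunit to oppose activin. The beta subunit Inhba, which alone forms activin A, was up-regulated by 0.24 (limma, adjusted p = 0.0197), and Inhbb differed by 0.23 (adjusted p = 0.0506, or 0.00717 when blocked on the sets).

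Among receptors and transmitter genes were several known in islets. Gcgr, the receptor through which glucagon acts on liver and beta cells, ran from 8.65 to 8.98 (median 8.82) in the non angiogenic pools and from 8.14 to 8.58 (median 8.41) in the angiogenic pools, a difference of -0.43 ± 0.08 (SE). Of 28 G protein coupled receptors of islets on the list used, no other was lower by limma. Gipr, the receptor of the gut hormone GIP, and Sstr3, a somatostatin receptor, came nearest at -0.24 and -0.23 (adjusted p = 0.104 and 0.066) and passed with the set as a block (adjusted p = 0.0287 and 0.0246 from limma), and the GLP-1 receptor Glp1r differed by -0.02. Gad1, encoding the enzyme GAD67 that makes GABA from glutamate, was 9.36, 9.48 and 9.76 (lowest, median and highest) in non angiogenic against 8.96, 9.12 and 9.20 in angiogenic islets, a difference of -0.39 ± 0.07 (SE). Gad2, the second GABA-making enzyme, differed by 0.00, and none of the other 5 genes of GABA synthesis and transport passed the test. Slc35d3, of the nucleotide sugar transporter family, went from 9.61 ± 0.08 to 9.22 ± 0.11 (SD, n = 6 each).

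Calcium and vesicle genes made up the rest of that group. Calb1, encoding calbindin, which buffers calcium in neurons and islet cells, ran from 7.75 to 8.37 (median 8.18) in the non angiogenic pools and from 7.36 to 7.68 (median 7.61) in the angiogenic pools, a difference of -0.58 ± 0.11 (SE). Non angiogenic replicate 1, at 7.75, lay closest to the angiogenic arrays. Caps2, for calcyphosine 2, another calcium-binding protein, was 5.86, 6.17 and 6.49 (lowest, median and highest) in non angiogenic against 5.50, 5.69 and 5.85 in angiogenic islets, its groups parted by only 0.0051. Mctp2, with calcium-binding C2 domains, differed by -0.31. Rab3b, a GTPase of secretory vesicles, went from 9.53 ± 0.11 to 9.21 ± 0.09, while Rab3a, Rab3c and Rab3d had differences of -0.15, -0.02 and 0.02, none past the test. Rab19 (-0.30), the endocytosis protein Reps2 (-0.35) and the leucine-rich repeat protein Flrt1 (-0.33) completed it.

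Gene regulation was the largest group. Plag1, a zinc finger transcription factor of growing tissue and an oncogene of salivary tumors, ran from 7.29 to 7.63 (median 7.40) in the non angiogenic pools and from 6.66 to 6.86 (median 6.79) in the angiogenic pools, a difference of -0.66 ± 0.06 (SE). The gap of 0.43 between the groups was wider than the spread within either of them. Its relatives Plagl1 and Plagl2 differed by 0.11 and -0.14 (limma, adjusted p = 0.566 and 0.148). Nr3c2, the mineralocorticoid receptor, which in kidney and colon acts on the epithelial sodium channel, lay between 6.62 and 6.83 (median 6.65) in angiogenic and between 6.92 and 7.33 (median 7.17) in non angiogenic islets, a difference of -0.45 ± 0.07 (SE). The related glucocorticoid receptor Nr3c1 differed by 0.06.

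The microRNA gene Mir186 was another with a large difference, 6.25, 6.41 and 6.95 (lowest, median and highest) in non angiogenic against 5.67, 5.99 and 6.15 in angiogenic islets, a difference of -0.58 ± 0.15 (SE). Non angiogenic replicates 1 and 2 were the highest, at 6.87 and 6.95, and 3 non angiogenic arrays lay only just above the highest angiogenic array. Its cluster reports the gene and does not part the mature arms, which are shown, from RefSeq on build GRCm38.p6, to give the seeds (bases 2 to 8, in capitals) through which a mature miR-186 would pair with targets.
miR-186-5p, chr3:157544285-157544306, plus strand: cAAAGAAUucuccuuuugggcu
miR-186-3p, chr3:157544324-157544345, plus strand: gCCCUAAGgugaauuuuuuggg
The arms have different seeds, and mature miRNAs were not measured here.

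The remaining regulators had smaller differences. They included 2 RNA-binding proteins, Msi1 (Musashi, -0.36), of stem and progenitor cells, and Cpeb1 (-0.26), which acts on poly(A) tails, and the tRNA methyltransferase family gene Trmt9b (-0.36). Zinc finger and leucine zipper genes were Ikzf2 (Helios, -0.33), Zbtb33 (Kaiso, -0.27), Zfp141 (-0.25), Zmat1 (-0.30) and the CREB-like Crebl2 (-0.26), beside Crebrf (-0.26), which acts on CREB3. In a list of 21 genes of the CREB and ATF families added after the values were seen, Atf5 also passed (limma, -0.23, adjusted p = 0.0248), while the block on sets made Creb3l1 (-0.22) and Crebzf (-0.17) lower too (adjusted p = 0.0158 and 0.0496). Mdm4, an inhibitor of p53, went from 9.98 ± 0.10 to 9.72 ± 0.10 (SD, n = 6 each). The Polycomb gene Cbx7 (-0.26), the elongation cyclin Ccnt2 (-0.26) and the antisense RNA gene Zbtb11os1 (-0.33) had differences in the same range.

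Of the enzymes, Sult1c2, a sulfotransferase of detoxification, was 6.32, 6.72 and 6.89 (lowest, median and highest) in non angiogenic against 5.97, 6.14 and 6.20 in angiogenic islets, a difference of -0.54 ± 0.10 (SE). Its non angiogenic replicates 1 and 2 lay below the other 4 arrays of the group. Fn3k, which removes sugar bound to proteins by glycation, went from 7.60 ± 0.09 to 7.25 ± 0.08, and Suox, the mitochondrial sulfite oxidase, from 9.69 ± 0.07 to 9.42 ± 0.03. Galnt13 and Galnt14, which start O-linked glycan chains, both differed by -0.27. Among 19 such enzymes the family did not share a direction, since 7 had differences below 0 (59.9% of all genes), and Galnt16 was up-regulated by 0.28 (limma, adjusted p = 0.0343). Galnt3 (0.19) and Galnt6 (0.23) were higher with the set as a block (adjusted p = 0.0255 and 0.0382 from limma). Also here were the metallophosphoesterase Mpped2 (-0.40), the LanC-like gene Lancl3 (-0.40), the cyclophilin-like Ppil6 (-0.36) and mitochondrial Sfxn4 (-0.36).

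Signalling members opened with Cd79a, the signalling chain of the B cell receptor, 5.97, 6.11 and 7.32 (lowest, median and highest) in non angiogenic against 5.47, 5.65 and 5.90 in angiogenic islets. A single non angiogenic array, replicate 4 at 7.32, lay far above the other 5 of that group, which ran from 5.97 to 6.36. The difference of -0.65 ± 0.22 (SE) became -0.45 without it. Of 19 B lymphocyte markers, a list added after the values were seen, 17 had their highest non angiogenic value in that same array. A difference below 0 was found in 14 (59.9% of all genes) and none was lower by limma, while Ebf1 and Cd72 were higher. Over the list, the median difference was -0.18 with that array and -0.06 without it. Its mean level ran from 6.31 to 7.18 in non angiogenic and from 6.39 to 6.49 in angiogenic islets. Ms4a1, encoding CD20, and Cd79b, the partner of Cd79a, differed by -0.48 and -0.27 with overlapping arrays (adjusted p = 0.628 and 0.734).

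The tyrosine kinases Tec (-0.27) and Tnk1 (-0.27), the Ras scaffold Cnksr1 (-0.29), the filamin partner Filip1 (-0.39), the RING finger gene Lonrf2 (-0.37) and the kelch gene Kbtbd3 (-0.32) had smaller values. Tec, a kinase of lymphocytes and other cells, was the closest call of all 72, its highest angiogenic array lying 0.00039 below its lowest non angiogenic array. Cilia and sperm were represented by Jhy, of ciliated ependymal cells (-0.42), Tsga10, of the sperm tail (-0.34), Cfap47 (-0.28) and Ccdc159 (-0.28). Of 33 genes of a cilium list, 30 had a difference below 0 (59.9% of all genes), with a median of -0.07. None passed in limma without the block, and Cfap69, of the sperm tail (-0.31), was lower with the set as a block (adjusted p = 0.0498). No member was on that list. Cfap47 and Tsga10 were among 80 genes named Cfap, Tekt, Spag, Spata or Tsga, a list added after the values were seen. Of these 57 had a difference below 0 (59.9% of all genes), with a median of -0.05. With the set as a block Cfap54 and Tekt5 were also lower and Spag5 was higher.

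Several little described genes were among the clearest. Gm609 ran from 6.32 to 6.54 (median 6.42) in the non angiogenic pools and from 5.38 to 5.84 (median 5.74) in the angiogenic pools, and 0.48 parted the groups, the widest gap of the 72. Its level was low, with a mean of 6.05 over all arrays, while the median over all genes was 7.76. Gm609, Cd79a, Caps2, Mctp2 and Galnt13 were the 5 members below the 25th percentile of levels. Shisal2b, of the Shisa-like membrane protein family, lay between 6.84 and 7.16 (median 7.02) in angiogenic and between 7.37 and 7.54 (median 7.50) in non angiogenic islets, a difference of -0.45 ± 0.05 (SE). The remaining members were 1700029J07Rik, 1810034E14Rik, Fam241b, 1700019D03Rik, Gm572, Rtl5 and BC065397, with differences from -0.40 to -0.26. Only Zfp141 and BC065397 of the 72 genes had a second cluster on the array. Its difference was -0.23 for Zfp141, with no overlap, and -0.13 for BC065397, with overlapping groups.

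**Figure D4:**
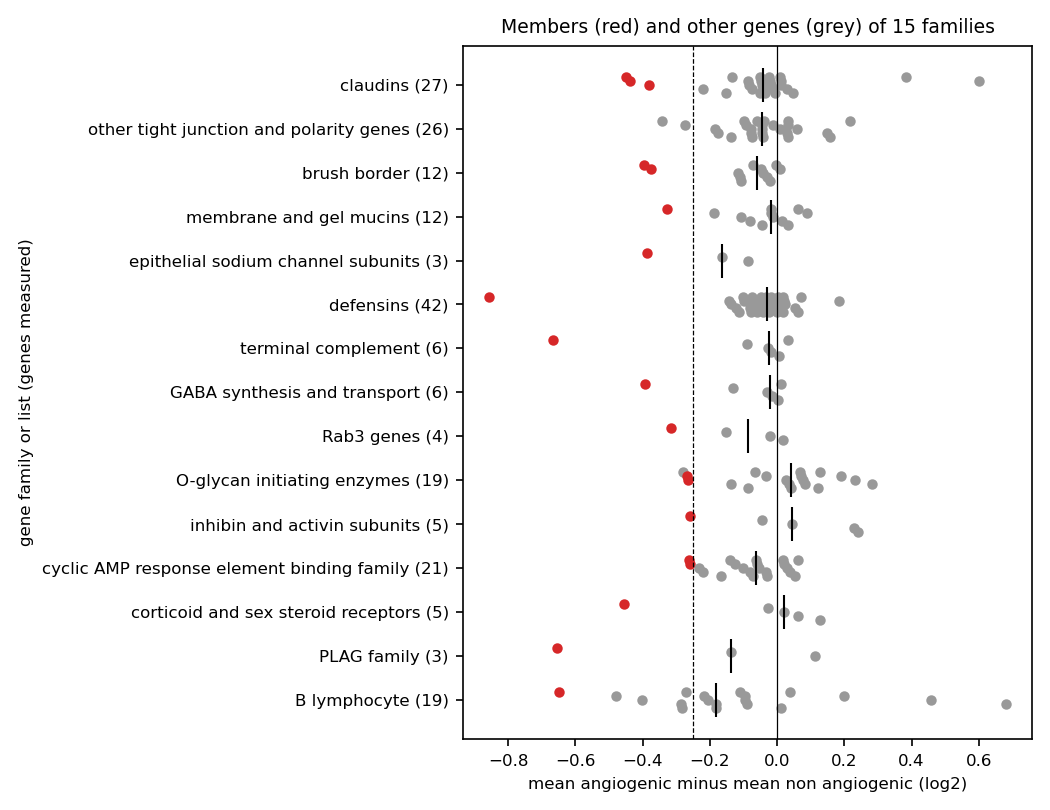
Difference of the group means (x axis, log2) for every measured gene of 15 families or lists, most chosen after the values were seen because they hold a member; red points are members, grey points other genes, black ticks the median of the list, the solid line 0 and the dashed line the limit of -0.25. Members stand at or near the left end of lists whose medians lie between -0.18 and 0.04.

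Lists of 45 cell types and functions, covering 955 measured genes (4.79% of all), held 8 of the 72 (11.1%), which were Cldn4 (duct cells), Cd79a (lymphocytes), Gcgr, Sult1c2, Defb1, Muc4, Galnt13 and Galnt14. The other 64 were on no list. That no member was an alpha, delta or PP cell marker was set by the names left out, since Gcg of alpha, Sst of delta and Pyy of PP cells met both limits. Within these lists genes went both ways, and of all genes 59.9% had a difference below 0. Of 9 alpha cell markers 7 had a difference below 0, with a median of -0.08, while Slc38a5 and Tmem45a were higher (0.70 and 0.47, limma, adjusted p = 0.00428 and 0.000693). Of 11 delta cell markers 7 were below 0, with a median of -0.06, and Gfra3 was higher (0.47, adjusted p = 0.0416 from limma). Of 11 PP and epsilon cell markers 6 were below 0, with a median of -0.15. The means over these 3 lists, which blend such genes, differed by 0.03, -0.06 and -0.10 (adjusted p = 0.537, 0.139 and 0.277, exact permutation test). These means include Gcg (-0.26), Sst (-0.74) and Pyy (-0.56), which met the limits on this same contrast. They were not taken without these genes, so they do not speak for the other markers. For duct cells, an epithelium rich in claudins and mucins, the mean of 12 markers differed by -0.01 (adjusted p = 0.836, exact permutation test) and by 0.02 without Cldn4, while Krt19 and Sox9, which define duct cells, differed by -0.05 and 0.02. Means over 16 acinar markers ranged widely in both groups, from 7.48 to 11.95 in non angiogenic and from 7.69 to 10.85 in angiogenic islets. Over all the lists limma called 77 genes higher and 22 lower (all genes, 3.55% and 0.948%), and 11 of the 22 were neither members nor left out by name. The rest, 6 members and genes left out by name, met the limits on this same contrast. Their calls follow from that choice, so the 22 are no free count to set beside the share of all genes. With the set as a block there were 122 higher and 52 lower, 8 of them members (all genes, 2.74% lower). That block added no lower call among the lists of brush border, mucin, sodium channel, defensin, terminal complement, GABA, Rab3, PLAG and steroid receptor genes.

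The differences were also read within each set of 3 against 3 arrays. The rule demands no overlap over all arrays, so each member had to be lower without overlap within each set too, and only the sizes were free. Within replicates 1 to 3 the 72 differences ran from -0.84 to -0.15 (median -0.34), and within replicates 4 to 6 from -0.88 to -0.19 (median -0.32). The difference was the larger in replicates 1 to 3 for 39 genes and in replicates 4 to 6 for 33, and it reached the limit in both sets for 53. When the rule was applied to replicates 1 to 3 alone it chose 375 genes, of which 78.1% were lower in replicates 4 to 6, against 52.4% of all genes, and 22.7% met the rule there too, against 1.91% of all genes. Chosen in replicates 4 to 6 alone, 380 genes gave 85.0% lower in replicates 1 to 3 (60.7% of all genes) and 22.4% meeting the rule (1.88%). Of the 85 genes chosen in both, 53 were members, which by the rule are those that reached the limit in both sets. Members made up 61 of the 375 and 64 of the 380, and the rule had already made these lower in the other set. Whether mice were shared between the sets is not known either, so these shares are no independent test.

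**Figure D5:**
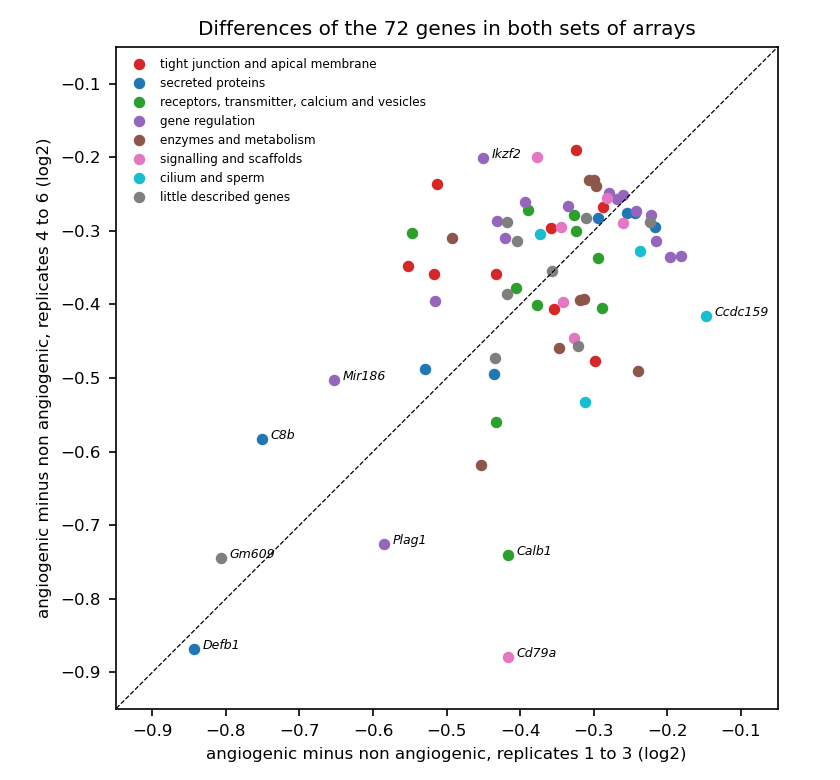
Difference of the group means in replicates 1 to 3 (x axis) and in replicates 4 to 6 (y axis) for the 72 genes, both in log2 and from 3 against 3 arrays, coloured by role; the dashed line marks equal differences. Defb1 and Gm609 are near the line, while Cd79a and Calb1 have the larger difference in replicates 4 to 6 and Ikzf2 in replicates 1 to 3.

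Between the sets themselves, with group in the limma model, 8 of the 72 genes (11.1%) differed at an adjusted p under 0.05, against 36.9% of all genes. A gene that differs strongly between sets overlaps more easily between groups, so the demand for no overlap disfavours such genes. C8b, Cpeb1 and Kbtbd3 were higher in replicates 4 to 6, C8b by 0.28 ± 0.08 (SE, adjusted p = 0.0113 from limma), and BC065397, Ccnt2, Ikzf2, Nr3c2 and Vstm2l were lower. Leaving out non angiogenic replicate 2 or 5 or angiogenic replicate 1 reduced the 8 to 4, and leaving out non angiogenic replicate 4 reduced them to 5. Whether the group difference itself differed between sets was tested as an interaction in limma. No member passed after adjustment, and of all genes 1 did (0.00502%). At an unadjusted p under 0.05 there were 2 of 72 (2.78%), Ccdc159 and Ikzf2, against 6.41% of all genes. The rule used these same group values, and its demand for no overlap disfavours genes whose difference lies in 1 set. These shares therefore cannot show whether the differences were alike between the sets.

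Promoter windows were at hand for 58 of the 72 genes, 79 windows in all. Defb1, Trmt9b, Fn3k, Vstm2l, Msi1, Mir186, Calb1, Gm609, Tuft1, Plag1, Flrt1, Ikzf2, Igsf5 and Crebl2 had none. Median GC content was 60.0%, against 57.3% over the windows of all measured genes. Of the motifs searched on both strands, the GC box GGGCGG was in 51.9% of the member windows (49.2% of all), CCAAT in 34.2% (37.4%), TATAAA in 11.4% (11.5%), the hypoxia element core ACGTG in 15.2% (21.6%) and the E-box CACGTG, which contains that core, in 6.33% (8.24%). TGACGTCA was in 2.53% (2.37%), the windows of Cldn6 and Cldn7 printed above. Among 10 windows of the junction and apical genes, a group drawn up after the values were seen, 7 held the GC box and 0 held CCAAT. The hypoxia core was in 2 of them, TGACGTCA in 2, TATAAA in 1 and the E-box in 1. No test was run on so few windows.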

How the data were processed

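Total RNA of 12 pools of islets was hybridised to Affymetrix mouse gene arrays, 1 array a pool. The deposited values are log2 levels of transcript clusters, which the authors made with RMA in Affymetrix Expression Console per the labels (tool versions and genome build: not given in the sources used here). RMA evens out overall differences between arrays and compresses weak signals, and array medians were 7.30 to 7.38. Of 35556 clusters, 21789 had exactly 1 symbol in the platform annotation, 1621 several and 12146 none. The brightest cluster by mean was taken for the 999 genes with several, which left 19938 genes. All 72 members matched RefSeq (GRCm38.p6) by gene identifier with unchanged symbols.

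Lists and the set contrasts were tested with limma 3.58.1 (R 4.3.3), two-sided, at a threshold of 0.05 after Benjamini-Hochberg adjustment across all genes, and means of marker lists by exact permutation of the arrays. The fit was tested on simulated data. The members and lists were chosen with earlier results of these data known, and role groups, gene families, the grainyhead and HNF1 motifs (in 1 and 0 member windows) and the sets of arrays after values were seen. Genes named by rule were the 15 lowest differences, the 5 widest gaps, up to 4 members per list, the 3 genes on either side of each limit and those left out by name; all other names were added after their values were seen. The alternatives tried were other limits, scalings, cluster rules, limma settings, blocks and leaving out each array. The number of arrays limits the precision.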

Additional observations from a re-analysis of the deposited data

Results flagged for a closer look

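Among the 24 named members and 16 marker lists, 80 groups of 6 arrays were searched for a single array far from the rest, which chance alone flags in about 1 of 20 groups, and 3 were found. Cd79a, the B cell receptor chain, was at 7.32 in non angiogenic replicate 4, against 5.97 to 6.36 in the other 5. The mean over lymphocyte markers was also highest there, at 7.17 against 6.39 to 6.61, and this list includes Cd79a. The mean over acinar markers was 7.69 in angiogenic replicate 2, against 9.89 to 10.85 in the other angiogenic arrays. The part of lymphocyte RNA in the Cd79a difference was not tested; without that array the difference was -0.45.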

How the results depend on the processing

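Rule. In place of 72 genes it kept 37 with a limit of -0.35, 174 with no limit, 41 among genes above the median level and 128 when overlap was judged within each set. Chosen after seeing the data, replicates 1 to 3 alone gave 375 and replicates 4 to 6 alone 380. Leaving out 1 array gave 71 to 97. After median centring 68 of the 72 met the rule and after quantile normalization 62. All 24 named differences kept their direction and size within the spread of the arrays in 360 alternatives. Leaving out an array could not reverse a direction, since the rule had put every angiogenic array below every non angiogenic array. Averaging clusters could change only Zfp141 and BC065397, the members with a second cluster.

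List genes. The 22 lower and 77 higher became 44 and 111 with the replicate block, 52 and 122 with the set as a block, 97 and 137 with the methods' t-test unadjusted (20 and 65 adjusted), and 12 to 21 and 61 to 78 without 1 array (14 lower without non angiogenic replicate 6, 12 without angiogenic replicate 6). The lower counts hold members and genes left out by name, which met the limits on this same contrast. Set contrast: 4 to 8 members without 1 array.

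Pairing. Deviations from the group means correlated by 0.028 to 0.538 between same-numbered arrays. By these the best match had the same number for only 2 of 6, so numbers were not taken as pairs. Deviations from the means of group and set correlated by -0.337 to 0.123. With the replicate block the rule, asking only for lower values within numbers, gave 164 genes, and the stromal means (endothelial 0.46, pericyte 0.73, fibroblast 0.998, macrophage 0.42) had an adjusted exact p of 0.0833, each raw p being the smallest that design allows.

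Marker means. Neurons turned to -0.0056 and mast cells and neutrophils to -0.0165 after centring. The beta cell mean passed after quantile normalization (-0.0835, adjusted exact p = 0.0485). Without 1 array, ranges were -0.0806 to -0.0513 for delta cells (past the threshold without non angiogenic replicate 2 or angiogenic replicate 5), -0.0017 to 0.0344 for neurons, -0.0235 to 0.0255 for mast cells and neutrophils and -0.0279 to 0.0128 for duct cells. The delta cell mean includes Sst (-0.74), which met both limits of the rule, and was not taken without it.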

Other observations

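Some genes of the lists were lower by limma without meeting the rule. Of beta cell and granule genes these were Ucn3, the hormone urocortin 3 (12.21 ± 0.13 to 11.96 ± 0.06, SD, n = 6 each, adjusted p = 0.0285 from limma), and Resp18, a granule protein (12.39 ± 0.07 to 12.21 ± 0.01, adjusted p = 0.0294 from limma), both without overlap between groups. St18, an islet transcription factor, differed by -0.22 (adjusted p = 0.0424). In metabolism they were Pdk4, the kinase that shuts off pyruvate dehydrogenase (-0.50, adjusted p = 0.0301), and Hmgcs1, of cholesterol synthesis (-0.30, adjusted p = 0.0369). St6gal1, which adds sialic acid to glycans, differed by -0.24 with no overlap (adjusted p = 0.0265), and Gabarapl1, of autophagosomes, by -0.25 (adjusted p = 0.0207).

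In the list of circadian clock genes 16 of 17 had a difference below 0 (59.9% of all genes), with a median of -0.10. None of them passed the limma test without a block. When limma blocked on the sets, Cry2 was lower (adjusted p = 0.0416) and Bhlhe40 higher (adjusted p = 0.00321). Rora, a nuclear receptor of the clock, did not overlap between groups (-0.18, adjusted p = 0.124 from limma), and Bhlhe40 was the single gene above 0 (0.42, adjusted p = 0.225).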
